A study of Mus musculus with 18 samples.

Results

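The genes described here are the angiopoietin and vascular endothelial growth factor (VEGF) ligands and their receptors, 9 genes of 26114 in dataset 1 and 29195 in dataset 2. The genes were chosen by their UMI levels in parietal, other epithelial and endothelial-like cells of these datasets: 5 ligands (Angpt1, Angpt2, Vegfa, Vegfb and Pgf) and 4 receptors (Tek, Tie1, Flt1 and Kdr), followed through every cluster of both datasets. These levels, above all parietal Angpt2 and the receptors of endothelial-like cells, are therefore given across cell types as a description with no test. Tests are given only for contrasts that the choice did not name, between neighbouring types, regions or clusters. The cells were stomach cells of 10-week-old wild-type C57BL/6J male mice, untreated, dissociated from gastric units separated from the muscle layer and profiled by Quartz-Seq2, a plate-based method that counts unique molecular identifiers (UMIs) at the 3′ end of polyadenylated RNA. Dataset 1 held 491 cells of the corpus and antrum and dataset 2 held 3993 cells of the corpus, each in 2 pools of 3 mice (tube 1 and tube 2; K and T) prepared by different operators, so pool and operator cannot be told apart. The pool is the replicate throughout, and plates of a pool are technical repeats.

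VEGF ligands act on receptor tyrosine kinases of endothelial cells. Vegfa binds the receptors encoded by Flt1 and Kdr, and the Kdr product carries most of its mitogenic signal, whereas the products of Vegfb and Pgf bind that of Flt1. Angpt1 activates Tie2, the receptor encoded by Tek, and steadies vessels, while Angpt2 is a context-dependent ligand that can oppose it. Tie1 is a related receptor that pairs with Tie2. The gastric glands are wrapped in a dense capillary bed, next to which parietal cells secrete acid with a high demand for oxygen.

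On the mouse genome GRCm39, the gene bodies of the ligands lie at chr15:42288058-42540417 (Angpt1), chr8:18739202-18791603 (Angpt2), chr17:46327919-46343309 (Vegfa), chr19:6958447-6965127 (Vegfb) and chr12:85213409-85224564 (Pgf), each on the minus strand. Those of the receptors lie at chr4:94627291-94763224 on the plus strand (Tek) and at chr4:118328385-118347261 (Tie1), chr5:147498414-147662826 (Flt1) and chr5:76093487-76139884 (Kdr) on the minus strand. The body of Angpt2 lies wholly inside that of Mcph1, a DNA damage response gene on the other strand at chr8:18645128-18858114. Whether the counts used strand is not given in the sources used here, and without strand the reads of overlapping genes cannot be told apart. Across the cell types of dataset 2, Mcph1 stood highest in isthmus cells, at 13.5 UMIs per 1000000 UMIs (CPM), and at 4.12 CPM in parietal cells, and its values in the parietal clusters are given beside those of Angpt2.

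Promoters of 7 of the 9 genes were found in RefSeq (GRCm38.p6, 250 bases before to 50 after the start of the transcript), and Angpt1 and Angpt2 were not among them. Those of the 3 VEGF ligands are shown because the ligands share the receptor encoded by Flt1 and their genes had different source cells. Where a gene had another start, the window printed is the one that held a match. Capitals mark ACGTG and GCGTG, the core letters of hypoxia response elements, on either strand.
Vegfa, second start, chr17:46025114-46025413, minus strand: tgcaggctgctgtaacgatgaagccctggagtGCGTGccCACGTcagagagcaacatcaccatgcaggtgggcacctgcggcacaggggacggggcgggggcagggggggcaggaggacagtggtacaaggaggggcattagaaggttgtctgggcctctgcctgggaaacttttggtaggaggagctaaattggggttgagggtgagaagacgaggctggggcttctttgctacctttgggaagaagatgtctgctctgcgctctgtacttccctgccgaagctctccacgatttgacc
Vegfb, chr19:6987602-6987901, minus strand: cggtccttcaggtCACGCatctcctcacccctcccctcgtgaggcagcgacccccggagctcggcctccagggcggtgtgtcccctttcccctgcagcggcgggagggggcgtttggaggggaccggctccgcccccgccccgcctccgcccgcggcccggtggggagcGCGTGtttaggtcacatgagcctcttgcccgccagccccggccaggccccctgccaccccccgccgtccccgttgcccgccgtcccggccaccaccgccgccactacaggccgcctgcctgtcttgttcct
Pgf, first start, chr12:85177264-85177563, minus strand: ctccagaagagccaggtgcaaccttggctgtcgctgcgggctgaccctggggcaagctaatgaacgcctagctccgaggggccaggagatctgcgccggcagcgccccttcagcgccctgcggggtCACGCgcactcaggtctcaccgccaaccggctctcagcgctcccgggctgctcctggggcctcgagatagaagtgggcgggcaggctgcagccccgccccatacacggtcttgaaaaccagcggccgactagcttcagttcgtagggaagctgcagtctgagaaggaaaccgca
The printed Vegfa window, that of the second start, held 1 of each motif, the Vegfb window GCGTG at 2 places and the Pgf window GCGTG at 1. Among the receptors, the Flt1 promoter held GCGTG at 1 place and the Kdr promoter at 2, and those of Tek and Tie1 held neither. The other Vegfa start (chr17:46032328-46032627) and the other Pgf start (chr12:85175933-85176232) held neither. On the minus strand the printed Vegfa window lies downstream of that other Vegfa start, within the gene. Its matches are therefore not in the upstream Vegfa promoter. ACGTG occurs in 19.6% and GCGTG in 32.4% of all 32851 promoters of this length. AAGGTCA, which estrogen-related receptors bind, occurs in 4.72% of them and in no promoter of the 7 genes. AGGAAG, a core bound by ETS factors, occurs in 35.4% and was found at 2 places in each of the Tie1 and Flt1 promoters. A match is a run of letters, not a site shown to be used.

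Levels are given as UMIs of a gene per 1000000 UMIs of the cells summed (CPM), with exact 95% Poisson intervals that cover counting error only. Total UMIs were 9242558 and 10664171 in the pools of dataset 1 and 67173249 and 72438153 in those of dataset 2, with a median of 38757 and 31020 UMIs per cell. Cluster numbers are the deposited ones. Pit, isthmus, neck, chief and parietal clusters carry the study's names, and a name ending in "-like" was given from cell type markers. Well barcodes recur between plates (all 384 of dataset 2 occur in more than 1 plate), so cells were kept apart by plate. Across the 9 genes, ligands were spread over epithelial, endocrine and stromal cells, while endothelial-like cells held 92.0 to 97.7% of the UMIs of Tie1, Flt1 and Kdr in each dataset, and 78.0% (dataset 1) and 77.5% (dataset 2) of those of Tek.

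**Figure D1:**
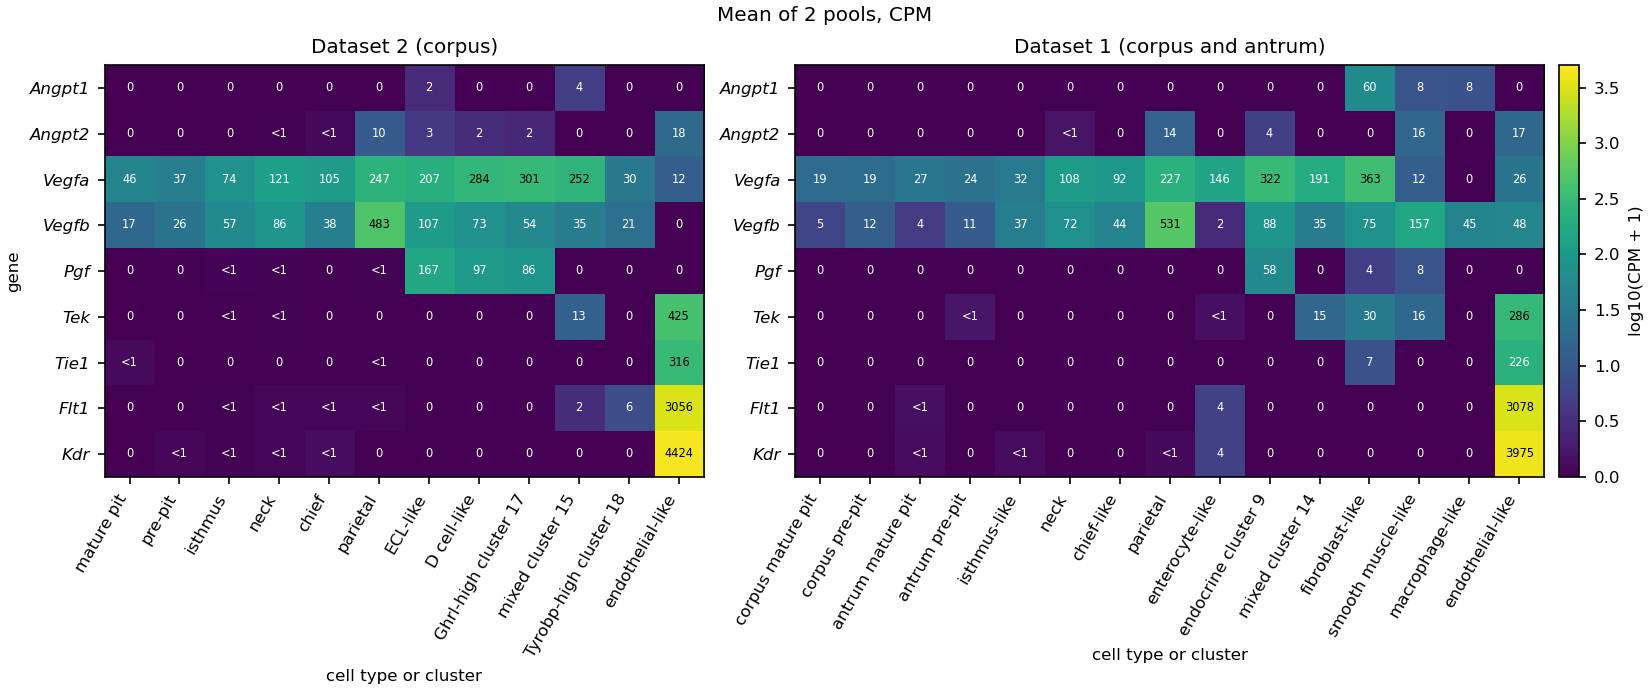
Mean level of each gene over 2 pools in each cell type or cluster of dataset 2 (left) and dataset 1 (right), printed in CPM and coloured by log10(CPM + 1). The 4 receptors are highest in the endothelial-like column, Vegfb in the parietal column, Pgf in the endocrine columns and Angpt1 in the fibroblast-like column of dataset 1. The Angpt2 mean is also highest in the endothelial-like column, at 18.0 (dataset 2, 1 UMI) and 16.6 (dataset 1, 2 UMIs). Its parietal means are 10.4 and 13.7, from 362 and 50 UMIs. In smooth muscle-like cells of dataset 1 it is 15.9, from 2 UMIs.

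Angpt2 was a low-level RNA of parietal cells, the acid-secreting cells of the gland. In dataset 2 its level in parietal cells was 11.7 CPM in pool K (222 UMIs in 400 cells, interval 10.2 to 13.3) and 9.08 in pool T (140 UMIs in 302 cells, 7.64 to 10.7). In dataset 1 it was 11.6 in tube 1 (13 UMIs in 17 cells, 6.20 to 19.9) and 15.7 in tube 2 (37 UMIs in 40 cells, 11 to 21.6). All 4 pools thus lay between 9.08 and 15.7, and parietal cells, which made up 17.6% of the cells of dataset 2, held 97.6% of its 371 Angpt2 UMIs. In dataset 1 they held 89.3% of 56 UMIs.

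Outside the endocrine clusters, the other epithelial cells were at or near 0 for Angpt2. In dataset 2, ECL-like (enterochromaffin-like) cells had 3 UMIs in 53 cells (2.95 CPM, 0.608 to 8.62). D cell-like cells had 1 UMI in 31 cells (2.43 CPM) and Ghrl-high cluster 17 had 1 in 29 cells (1.73 CPM). Endocrine cluster 9 of dataset 1 had 1 in 24 cells (2.31 CPM). The mature pit, pre-pit, isthmus, neck and chief cells of dataset 2 had 3 UMIs over 3124 cells, 2 in neck cells and 1 in chief cells, all of pool K, which together come to 0.0293 CPM or 0.279% of the parietal level. Markers of parietal cells give a scale for this: Atp4b, a subunit of the gastric proton pump, stood at 0.648% of its parietal level in the same cells, Atp4a at 0.902% and Kcne2 at 2.01%. In dataset 1, with 1 Angpt2 UMI in 272 other epithelial cells, Angpt2 stood at 0.509% of its parietal level, Atp4b at 0.132%, Atp4a at 0.328% and Kcne2 at 0.58%. From so few UMIs the place of Angpt2 among the parietal markers was not resolved. In isthmus cells, the progenitor zone, it was 0 of 52837842 UMIs, which allows a level of up to 0.0568 CPM by the floor of 3 UMIs used for counts of 0 (exact Poisson upper bound 0.0698 CPM).

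Counted per cell, 30.2% of parietal cells of dataset 2 had an Angpt2 UMI (212 of 702 cells, exact 95% interval 26.8 to 33.7%, median depth 47647 UMIs), against 0.16% of neck cells (median 22530) and 0 of 1285 isthmus cells (median 37426), which by the same floor allows a share of cells with an UMI of up to 0.233%. With each cell thinned to 10000 UMIs the parietal share was 9.42% (701 cells, 1 shallower cell left out) and the neck share 0.0808% (1238 cells, 9 left out). The share therefore follows depth closely, and a parietal cell without an Angpt2 UMI was not shown to lack the RNA.

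Parietal cells fell into clusters 1 and 8 in dataset 2. Angpt2 stood higher in cluster 8 in both pools, but its call depended on the method and on single sums. In cluster 1 it stood at 8.76 CPM in pool K (113 UMIs, 7.22 to 10.5) and 3.58 in pool T (31 UMIs, 2.43 to 5.08). In cluster 8 it stood at 17.8 in pool K (109 UMIs, 14.6 to 21.4) and 16.1 in pool T (109 UMIs, 13.2 to 19.4). Both pools of cluster 8 were above both pools of cluster 1, and the pools of cluster 1 stood further apart than those of cluster 8. By plate, cluster 1 ranged from 5.10 to 12.1 in pool K and from 2.62 to 4.99 in pool T, and cluster 8 from 10.2 to 31.8 and from 7.57 to 22.1, so that within a pool the plates overlapped in K only.

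By edgeR's quasi-likelihood test over sums per cluster and pool, Angpt2 was higher in cluster 8 by 1.18 ± 0.35 (SE) on the log2 scale (adjusted p = 0.0186, Benjamini-Hochberg), in a comparison in which 27.2% of all 12922 genes tested were called. Angpt2 was chosen for its parietal level and entered this fit through its parietal UMIs, so nothing is concluded from this call. Mcph1, whose gene spans that of Angpt2, was higher in cluster 8 as well, at 3.18 and 1.62 CPM in cluster 1 (pools K and T) and 7.34 and 6.21 CPM in cluster 8, and the part of shared reads in either difference was not tested. The clusters were made by the study from the same counts, so here and below a p-value describes how far apart clusters stand. The clusters of a pool share the mice of that pool. The call was lost with DESeq2 (log2 1.24, adjusted p = 0.273) and without cluster 1 of pool T (0.72, 0.164), cluster 8 of pool K (1.16, 0.123) or cluster 8 of pool T (1.24, 0.0799); without cluster 1 of pool K the difference was 2.04, and over all alternatives adjusted p ran from 0.000151 to 0.273. Cluster 1 had a median of 22.8% mitochondrial UMIs and 45390 UMIs per cell, and cluster 8 had 12.6% and 51292, and with mitochondrial genes left out the difference was 1.19 (adjusted p = 0.018). At 10000 UMIs per cell, 5.90% of cluster 1 cells (458 cells) and 16.0% of cluster 8 cells (243 cells) kept an Angpt2 UMI.

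**Figure D2:**
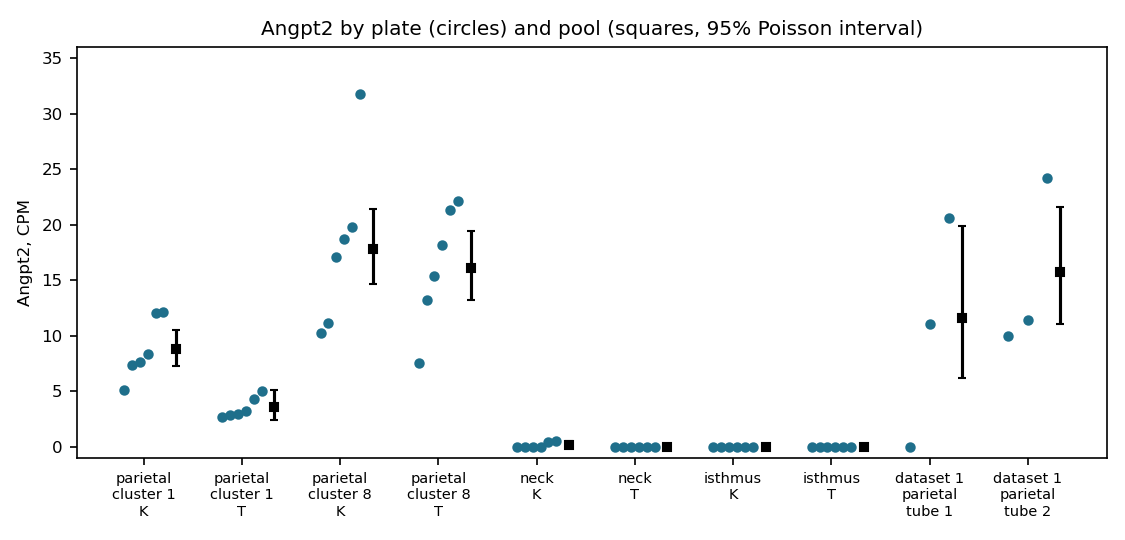
Angpt2 level (CPM) in each plate (circles) and each pool (squares with 95% Poisson intervals) for parietal clusters 1 and 8, neck and isthmus cells of dataset 2 and parietal cells of dataset 1. Cluster 8 lies at 17.8 and 16.1 against 8.76 and 3.58 for cluster 1, and neck and isthmus plates lie at or near 0.

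For Vegfb and Vegfa no difference between the parietal clusters passed the threshold without a block. Vegfb stood at 480 and 489 CPM in cluster 1 (pools K and T) and at 476 and 485 in cluster 8, with a fitted log2 difference of -0.23 ± 0.09 (edgeR adjusted p = 0.0595; with the pool as a block, adjusted p = 0.0281). On library totals without scaling factors, a setting chosen after seeing the data, the difference was -0.01. Vegfa stood at 246 and 226 in cluster 1 and at 275 and 256 in cluster 8, with -0.05 ± 0.15 (adjusted p = 0.832), a sign that turned on library totals (0.17) and without cluster 1 of pool K (0.03). All genes together shifted by 0.204 (median log2) between these scalings in this comparison, and the split of calls moved from 1588 higher and 1922 lower to 3562 and 953.

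Vegfb had its highest level in parietal cells. It stood at 478 CPM in pool K (9102 UMIs, 469 to 488) and 487 in pool T (7517 UMIs, 476 to 499), and at 537 and 525 in the pools of dataset 1. These 4 values were close together, and parietal cells held 72.6% of all Vegfb UMIs of dataset 2 and 81.0% of those of dataset 1. Next in dataset 2 came ECL-like (enterochromaffin-like) cells (102 and 111 in pools K and T), and neck cells, mucous cells deeper in the gland (87.8 and 84.6), whose intervals overlapped those of ECL-like cells. Then came D cell-like cells (75.8 and 70.9), isthmus cells (58.4 and 56.5), Ghrl-high cluster 17 (43.9 and 63.8), chief cells (35.4 and 41.3) and mixed cluster 15 (40.4 and 29.0). The intervals of these last 3 overlapped in pool K. Pre-pit cells (25.8 and 25.6) and mature pit cells, the mucous cells of the surface (18.0 and 15.5), were the lowest of the epithelium, and endothelial-like cells had no Vegfb UMI in dataset 2 and 7 in dataset 1. In dataset 1 the smooth muscle-like cells were next to parietal cells, at 111 and 203 CPM from 32 UMIs in 18 cells.

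Vegfa, the main mitogen of the family, had several source cells, and parietal cells were not the highest of them. Parietal cells stood at 255 CPM in pool K (4860 UMIs, 248 to 263) and 239 in pool T (3687 UMIs, 231 to 247), and at 219 and 235 in dataset 1. The endocrine clusters of dataset 2 stood around these values, with 311 and 291 in Ghrl-high cluster 17, 316 and 252 in D cell-like cells and 233 and 182 in ECL-like cells, as did mixed cluster 15 (213 and 290). Their intervals overlapped those of parietal cells in at least 1 pool each. Over both pools, cluster 17 stood at 301 (258 to 349) and ECL-like cells at 205 (178 to 234). Parietal cells stood at 248 (243 to 253), between them with no overlap. Since parietal cells were far more numerous, they held 47.8% of the Vegfa UMIs of dataset 2. In dataset 1 the highest levels were those of fibroblast-like cells (398 and 328, from 15 cells) and endocrine cluster 9 (351 and 293). Enterocyte-like cells stood at 149 and 143, and pit cells of both regions between 14.7 and 35.5. Endothelial-like cells had 1 Vegfa UMI in dataset 2 and 4 in dataset 1.

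Among neck cells Vegfa differed by pool, at 95 CPM in pool K and 148 in pool T. The plates did not overlap, the highest of K being 105 and the lowest of T 131. Neck cluster 0 was the highest of the neck clusters (149 and 193) and held 135 of 644 neck cells in pool K and 336 of 603 in pool T. In neck clusters 2, 7 and 12 the pools stood at 65.0 and 59.1, 83.6 and 93.2, and 107 and 112, with overlapping intervals in each. Isthmus cells stood at 64.0 in pool K and 84.7 in pool T. Their plates overlapped, from 51.5 to 77.6 in K and from 73.0 to 102 in T. Vegfb did not separate the pools in either type, with neck plates from 80.8 to 97.2 in K and 80.4 to 91.5 in T.

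**Figure D3:**
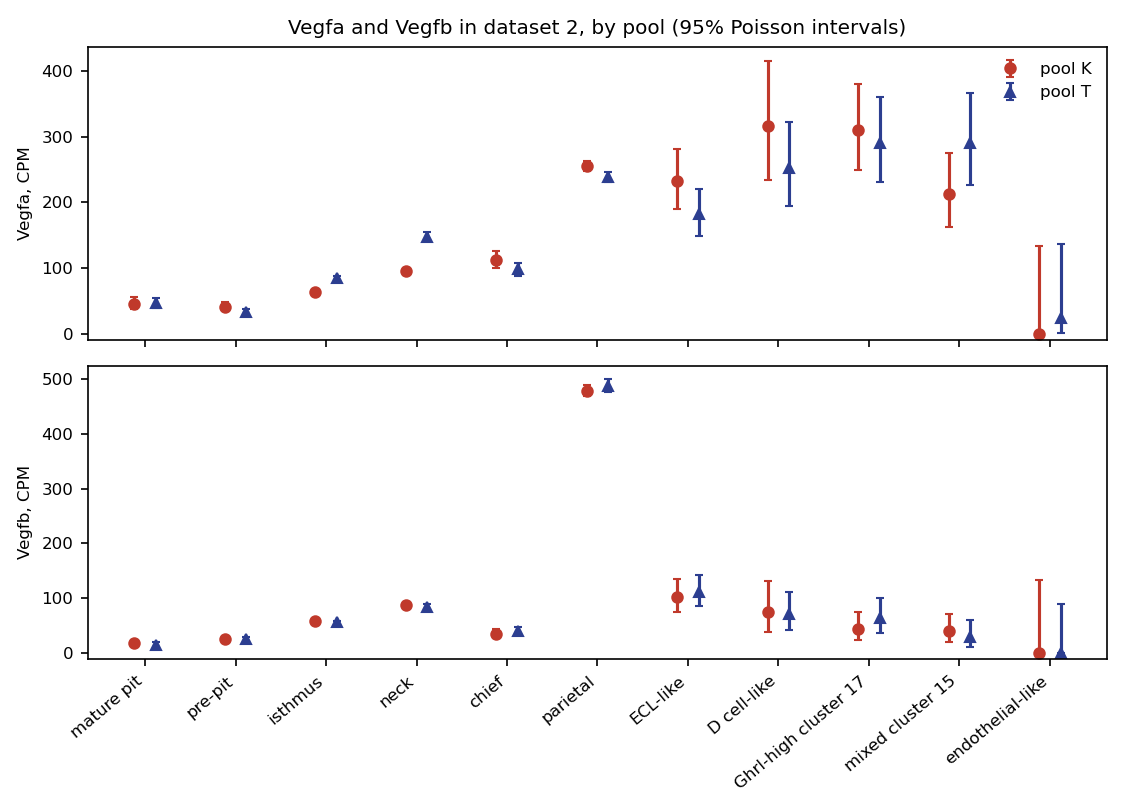
Vegfa (top) and Vegfb (bottom) in CPM by cell type of dataset 2, in pool K (circles) and pool T (triangles), with 95% Poisson intervals. Vegfb peaks in parietal cells alone (478 and 487), whereas Vegfa of endocrine clusters and mixed cluster 15 lies around the parietal values (255 and 239).

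Along the lineages the 2 VEGF genes were tested between neighbouring types with edgeR on sums per type and pool. Of the 9 genes, 3 passed the filter on low counts in these fits (Angpt2, Vegfa and Vegfb), Angpt2 through its parietal level, and Angpt2 was at or under the floor of 3 UMIs in each of the epithelial neighbours, so no fold is given for it. Against the mean of the other epithelial types, parietal cells stood higher by 3.86 (Vegfb) and 2.04 (Vegfa) on the log2 scale. This contrast chose the genes, and it called 67.8% of all genes, so nothing is read from it.

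From isthmus to neck cells both rose, Vegfa by 0.78 ± 0.18 (edgeR adjusted p = 0.00271) and Vegfb by 0.65 ± 0.08 (adjusted p = 1.47e-05), where 50.7% of all genes were called. The Vegfa difference was 0.39 without neck cells of pool T (adjusted p = 0.0453) and 1.08 without those of pool K, and neck cluster 2 (65.0 and 59.1 CPM) was not above isthmus cells (64.0 and 84.7 CPM). From isthmus to pre-pit cells both fell, with 27.8% of all genes called. Vegfa fell by 0.82 on the log2 scale (SE 0.21, edgeR adjusted p = 0.0108) and Vegfb fell by 0.95 (SE 0.10, adjusted p = 6.61e-06). The Vegfa call was lost without pre-pit cells of pool T (adjusted p = 0.119) or isthmus cells of pool T (0.0946), whereas Vegfb was called under every alternative of both comparisons. From low to high the order of both genes was pre-pit, isthmus and neck cells, with parietal cells above.

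From pre-pit to mature pit cells Vegfb passed the threshold and Vegfa did not, and the difference between the 2 genes was not tested. Vegfb fell by 0.49 (SE 0.14, edgeR adjusted p = 0.0498), in a comparison that called 10.4% of all genes. This call sat at the threshold: it was lost with DESeq2 (adjusted p = 0.105), RLE factors (0.0759), no filter (0.077), mitochondrial genes left out (0.052) and without any of the 4 sums in turn (0.104 to 0.398). Vegfa differed by 0.47 ± 0.26 (adjusted p = 0.293; 0.0313 with no filter).

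From neck to chief cells, the enzyme-secreting cells of the base, the direction of Vegfa depended on scaling. The level in CPM was 95 and 148 in neck cells and 112 and 97.9 in chief cells. The fit with TMM factors gave 0.60 ± 0.20 (edgeR adjusted p = 0.0272) in favour of chief cells, and library totals without factors gave -0.21 (adjusted p = 0.32). In chief cells the 10 most abundant genes held 51.2 to 51.4% of UMIs, against 22.4 to 22.5% in neck cells, and the median of all genes shifted to -0.886 on library totals, with 712 higher and 9088 lower calls in place of 2587 and 2771. The call was also lost without neck cells of pool K (adjusted p = 0.164), chief cells of pool K (0.187) or chief cells of pool T (0.0946). Vegfb was lower in chief cells under both scalings, by -0.34 ± 0.10 (adjusted p = 0.0136) and -1.16 (2.18e-07), and its call was lost with DESeq2 (0.0655) and without neck cells (0.052) or chief cells (0.0918) of pool K. This comparison called 38.6% of all genes.

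In dataset 1 the regions of the stomach could be compared through their pit cells. Vegfa stood at 18.7 and 19.0 CPM in corpus mature pit cells, 23.6 and 14.7 in corpus pre-pit cells, 35.5 and 18.5 in antrum mature pit cells and 24.9 and 22.7 in antrum pre-pit cells. These pools overlapped, and corpus against antrum gave -0.42 ± 0.27 for Vegfa (edgeR adjusted p = 0.407) and 0.36 ± 0.40 for Vegfb (adjusted p = 0.685), with 9.24% of all genes called. Vegfb was low in all 4, from 2.2 to 17.9 CPM. Mature against pre-pit cells gave -1.30 ± 0.52 for Vegfb in the corpus (edgeR adjusted p = 0.113, 12.9% of genes called) and -1.29 ± 0.58 in the antrum (adjusted p = 0.155, 14% called). For Vegfa the same contrasts gave 0.11 ± 0.39 (adjusted p = 0.899) and 0.52 ± 0.36 (adjusted p = 0.387). The difference between the regions was 0.00 ± 0.98 for Vegfb (adjusted p = 1) and -0.41 ± 0.53 for Vegfa (adjusted p = 0.977), where 0.0293% of genes were called. With 2 to 67 UMIs per sum, neither gene passed the threshold in these contrasts with all sums. Without corpus pre-pit cells of tube 2 the Vegfb difference in the corpus was -1.68 (edgeR adjusted p = 0.0381), and over all alternatives its adjusted p ran from 0.0381 to 0.859.

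**Figure D4:**
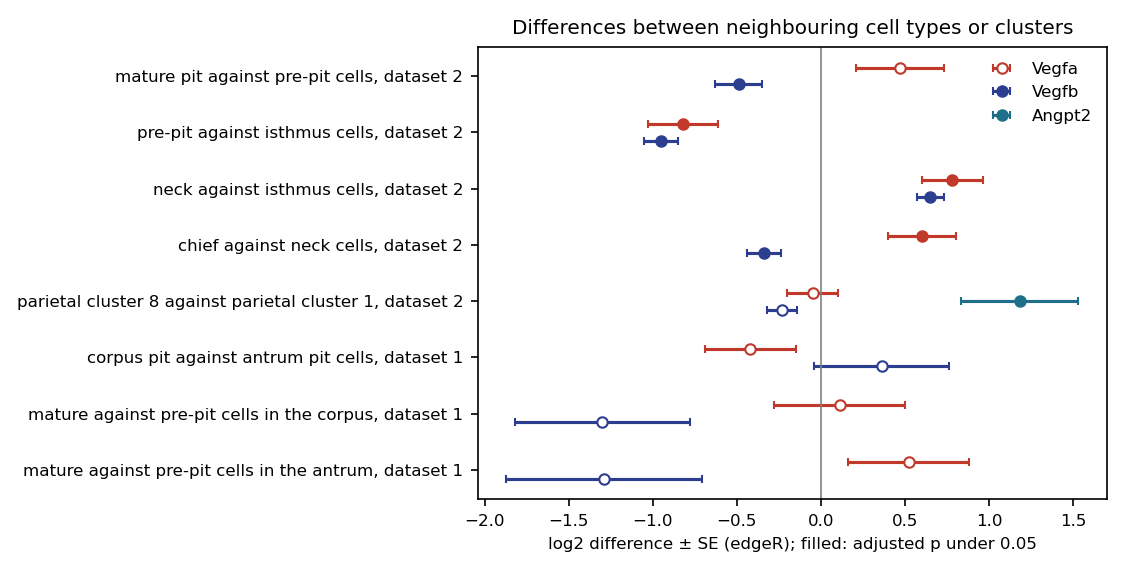
Fitted log2 differences with their SE for Vegfa, Vegfb and Angpt2 in 8 comparisons of neighbouring cell types, clusters or regions; filled circles have an edgeR adjusted p under 0.05. Both VEGF genes are positive in neck and negative in pre-pit cells against isthmus cells, and the dataset 1 comparisons are all open. Angpt2 was chosen for its parietal level, so nothing is concluded from its circle.

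Pgf, a ligand of the Flt1 product first known from placenta, was an RNA of endocrine cells. ECL-like cells were named for Hdc, the histamine-forming enzyme (7020 and 4466 CPM in pools K and T, against 3.38 and 10.6 in Ghrl-high cluster 17), but none of the ECL markers was among the 10 leading genes of the cluster. It also held Ghrl, the ghrelin gene, at 17201 and 25896 CPM, against 193132 and 205172 in cluster 17. ECL-like cells of dataset 2 stood at 213 CPM in pool K (96 UMIs, 172 to 260) and 122 in pool T (69 UMIs, 94.9 to 154), with intervals that did not overlap. D cell-like cells stood at 107 and 86.7, and Ghrl-high cluster 17 at 105 and 67.3. The pools of these last 2 clusters overlapped. ECL-like cells held 62.7% of the 263 Pgf UMIs of the dataset, Ghrl-high cluster 17 held 19.0% and D cell-like cells 14.8%. An UMI was found in 90.6% of ECL-like cells (48 of 53, exact 95% interval 79.3 to 96.9%, median depth 17920), or 84.3% at 10000 UMIs per cell (51 cells), against 0.285% of parietal cells at a greater depth.

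In dataset 1 endocrine cluster 9 had 36 Pgf UMIs in tube 2, in 13 of 17 cells (116 CPM, 81.2 to 161), and none in the 7 cells of tube 1, which allows up to 24.5 CPM. The cluster joined several endocrine types: cells with at least 10 UMIs of Hdc numbered 10 in tube 2 (23 Pgf UMIs) and 0 in tube 1, and cells with at least 10 UMIs of Ghrl numbered 14 in tube 2 (31 Pgf UMIs) and 3 in tube 1 (none). A cell can count under both. The part of this makeup in the difference was not tested.

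Angpt1, the activating ligand of Tie2, was found in stromal cells of dataset 1. Fibroblast-like cells held 10 of its 13 UMIs, at 88.4 CPM in tube 1 (6 UMIs, 32.4 to 192) and 31.3 in tube 2 (4 UMIs, 8.52 to 80.0). The remaining UMIs were 2 in smooth muscle-like and 1 in macrophage-like cells. No epithelial cell type of dataset 1 had an Angpt1 UMI. Dataset 2, in which no fibroblast-like cluster was found, had 4 in all, 2 in ECL-like cells and 2 in mixed cluster 15, where they lay in cells with at least 3 UMIs of Col1a1, a collagen gene of fibroblasts.

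The receptors came from 9 endothelial-like cells of dataset 2 and 15 of dataset 1. The 6 endothelial markers measured were all present, Pecam1 and Cdh5 included, and summed to 17573 and 14694 CPM. These cells also held RNA of other types: pit markers summed to 1980 and 2047, and parietal markers to 451 and 62.0. The cluster of dataset 1 had haemoglobin genes among its leading genes and a median depth of 0.219 of that of the dataset. In parietal cells the endothelial markers summed to 90.0 and 81.3, of which Plvap made up most (64.9 and 54.9), while Pecam1 was 0.203 and 0.575 and Emcn 0.0581 and 0.

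Kdr, the main VEGF receptor, stood at 5328 CPM in pool K (148 UMIs in 4 cells, 4504 to 6259) and 3520 in pool T (144 UMIs in 5 cells, 2968 to 4144), and at 4393 and 3558 in tubes 1 and 2. Flt1 stood at 3888 (3190 to 4694) and 2224 (1791 to 2731), and at 3155 and 3001. For both, pool K was above pool T with no overlap of intervals, from 4 and 5 cells. Tek, the Tie2 receptor of the angiopoietins, stood at 288 and 562 in dataset 2 and at 210 and 362 in dataset 1. Tie1 stood at 216 (79.3 to 470) and 416 (242 to 665) in dataset 2 and at 257 and 195 in dataset 1. The pools of each Tie receptor overlapped within counting error in dataset 2.

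Ligand UMIs were few in these same cells. Vegfb had none in dataset 2 and 7 in dataset 1, in 5 of 15 cells, at 46.7 CPM in tube 1 and 48.9 in tube 2 (19.4 to 99.4 over both pools). Angpt2 had 1 UMI in the 9 cells of dataset 2 and 2 in the 15 cells of dataset 1 (13.8 CPM, interval 1.67 to 49.8). That interval includes the parietal level of dataset 1 (14.4 CPM over both pools), so whether endothelial-like cells held less Angpt2 than parietal cells was not detectable at this depth. No Angpt1 or Pgf UMI was found in them in either dataset.

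**Figure D5:**
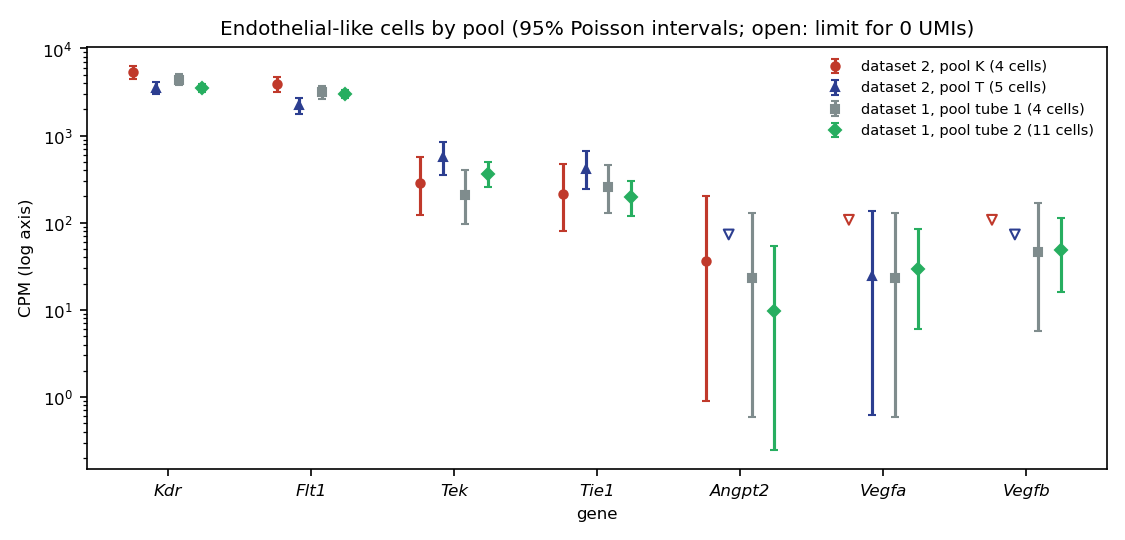
Levels in endothelial-like cells by pool (log axis, CPM, 95% Poisson intervals), with open triangles at the limit that 0 UMIs allow. Kdr and Flt1 lie between 2224 and 5328, Tek and Tie1 between 195 and 562, and the ligands rest on few UMIs or none.

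Outside the endothelial-like cells receptor RNA was sparse. Flt1 and Kdr each had 10 UMIs in enterocyte-like cells of dataset 1, of which 9 and 10 lay in 1 cell that also had 16 UMIs of Plvap, 3 of Emcn, 1 each of Cdh5 and Pecam1, 332 of Fabp2 and 402 of Apoa1, the last 2 being enterocyte genes. Outside the endothelial-like clusters, no other single cell held more than 3 UMIs of a receptor, a count reached by Tek in mixed cluster 15. Tek had 5 UMIs in fibroblast-like cells, 4 in smooth muscle-like cells and 7 in mixed cluster 15 of dataset 2 (18.4 and 8.29 CPM), the last all in cells with at least 3 UMIs of Trpm5, a channel gene of tuft cells. Parietal cells of dataset 2, over 34448440 UMIs, had 4 Flt1 UMIs in 3 cells (0.116 CPM, 0.0316 to 0.297), 1 Tie1 UMI and no Tek or Kdr UMI.

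The gene lists of the same pathways were read beside the 9 genes. Of 15 hypoxia response genes, 3 rose and none fell from pre-pit to mature pit cells, where 10.4% of all genes were called, with a median log2 difference of 0.18 against -0.02 for all genes (with the pool as a block, 5 rose and 2 fell). Egln3, a prolyl hydroxylase of the oxygen-sensing pathway, was at 63.6 and 74.2 CPM in pre-pit and 182 and 143 in mature pit cells, a rise of 1.36 ± 0.14 (edgeR adjusted p = 3.52e-05). Slc2a1, a glucose transporter, rose by 0.92 ± 0.15 (adjusted p = 0.00185) and Bnip3, a mitophagy receptor, by 0.98 ± 0.21 (adjusted p = 0.00878). Without mature pit cells of pool T the Bnip3 difference was 0.51 (adjusted p = 0.322), and its call was also lost without pre-pit cells of pool K. From isthmus to neck cells 3 of the 15 rose and 5 fell, a share near the 50.7% of all genes called there. Those that rose were Bnip3 (0.89), Epas1 (0.64) and Arnt (0.24). Those that fell were Egln3 (-2.30 ± 0.16, edgeR adjusted p = 5.24e-08), the glycolytic genes Pgk1 (-1.04 ± 0.08, 2.62e-07) and Ldha (-0.94 ± 0.12, 2.72e-05), Ndrg1 (-0.55) and Car9 (-0.38).

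Of 5 genes of the PGC-1 and estrogen-related receptor group, regulators of mitochondrial genes, all 5 were called higher in parietal cells, in the contrast where 67.8% of all genes were called and from which nothing is read. Esrrg stood at 698 and 687 CPM there and between 5.5 and 76.5 in the other epithelial types of dataset 2, and Ppargc1a at 119 and 90.5. Between the parietal clusters, where 27.2% of all genes were called, 1 of the 5 rose and 2 fell: Esrrg was higher in cluster 8 by 0.51 ± 0.13 (edgeR adjusted p = 0.00383), and Ppargc1a (-0.79 ± 0.15, 0.000242; -0.50 without cluster 1 of pool K) and Esrrb (-1.99 ± 0.30, 3.18e-05) were lower. Of 15 hypoxia genes 4 rose and 4 fell there, and of 11 other secreted angiogenic factors tested 1 rose and 5 fell, with a median of -0.93 against -0.01 for all genes. Among the latter, Fgf1 was lower in cluster 8 (10.4 and 12.1 against 2.45 and 2.66 CPM, log2 -2.34 ± 0.31, adjusted p = 6.47e-06), as was Pdgfa, a ligand for mesenchymal cells (-0.83 ± 0.15, 0.000212), and Efna1 was higher (1.13 ± 0.27, 0.00312).

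By Pearson's r over 40 sums of cluster and pool, which share libraries and depth, the genes most like Angpt2 among 13148 were Me3 (0.837), Iscu (0.822), Lonp2 (0.814), Slc25a4 (0.747) and Bnip3 (0.743). Those most like Vegfa included Fbxo25 (0.903), Phkb (0.893), Dvl3 (0.883) and Faah (0.882). Angpt2 itself stood at -0.0259 with Vegfa and 0.19 with Vegfb. These sums included endothelial-like cluster 19, where 1 Angpt2 UMI gave a mean of 18.0 CPM over its pools. The mean of parietal cluster 8 was 16.9 CPM, from 218 UMIs. How far that 1 UMI moved the likeness of genes to Angpt2 was not tested. Vegfb stood at 0.739 with Vegfa, in place 224 of the genes ordered by likeness to it.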

How the data were processed

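Quartz-Seq2 libraries of mouse stomach cells were made by the authors, who removed cells with fewer than 2500 detected genes, clustered the cells and deposited whole-number UMI counts per gene and cell, not normalized, with cluster labels and, for each cell, the percent of UMIs on mitochondrial genes, from reads demultiplexed with bcl2fastq 2.20.0.422 and aligned to GRCm39. Cells were sorted through a singlet gate, and no doublet caller was run here.

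UMI counts were summed per cell type or cluster and pool. Levels are UMIs per 1000000 UMIs of the sum (CPM). Differences were tested with edgeR 4.0.16 (quasi-likelihood, TMM factors, filterByExpr) and Benjamini-Hochberg adjustment over all genes tested, called at an adjusted p under 0.05, on 12 sums (6 types) and 28 sums (14 clusters) of dataset 2 and 14 sums (7 types) of dataset 1. The fits were also run on simulated counts with the same profile for all types, apart from set changes, and no pool effect. That run cannot check calls that turn on scaling or on the pools. Spread rests on 2 pools, so p-values measure the spread between these pools. Pools pair types through the same mice: deviations of types within a pool correlated above 0.1 in 15 of 15 type pairs of dataset 2 (median r = 0.298) and in 1 of 21 of dataset 1 (median 0.0282). Alternatives were the pool as a block, DESeq2 1.42.0, RLE factors, no filter, mitochondrial genes left out, each sum left out and, chosen after seeing the data, library totals without factors.

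The members and lists were chosen with earlier results of these data known. Genes named are the 9 members, list members called or highest or lowest of their list in a type, and the 5 genes most like Angpt2 and Vegfa, 1 of which is not reported here. Marker genes were used to check labels, and Mcph1 was named for its overlap. Cldn5 and Lipf in both datasets, and Hgf in dataset 2, were not analysed here.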

Additional observations from a re-analysis of the deposited data

How the results depend on the processing

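In dataset 2 the fitted direction of Vegfa and Vegfb between isthmus, pre-pit and neck cells was the same under every alternative run. Few endothelial-like cells and few UMIs limit every value from them: with at least 4000 detected genes per cell, Flt1 in dataset 2 stood at 963, Tek at 876 and Tie1 at 87.6 CPM. Only 1 of the 9 endothelial-like cells of dataset 2 reached 10000 UMIs. These filtered values may therefore rest on as little as 1 cell, and no order of the receptors is read from them. With TMM-scaled sums parietal Angpt2 stood at 15.0 in dataset 2 and Vegfa of chief cells at 190. The share of parietal cells with an Angpt2 UMI was 5.27% at 5000 and 16.6% at 20000 UMIs per cell. Except where stated the cause was not tested.

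Counts of calls moved by over 1.5 times with DESeq2 for corpus against antrum pit cells (548 in place of 945), mature against pre-pit cells in the corpus (665 in place of 1323) and in the antrum (684 in place of 1427), and with library totals for chief against neck cells (9800 in place of 5358). The difference between regions gave 3 genes, 12 with the pool as a replicate block, 11 with DESeq2 and 97 with no filter. Leaving out each sum of the compared types gave 465 to 1189 calls for mature against pre-pit cells of dataset 2 (1439 with all; 465 without mature pit cells of pool T and 645 without pre-pit cells of pool K), 2073 to 2731 for pre-pit against isthmus (3867 with all; 2073 without pre-pit and 2469 without isthmus cells of pool T), 5122 to 5912 for neck against isthmus, 3861 to 4795 for chief against neck, 1965 to 2856 for cluster 8 against 1 (3510 with all; 2118 without cluster 1 and 1965 without cluster 8 of pool K) and 637 to 818 for corpus against antrum. Mature against pre-pit cells gave 420 to 1236 in the corpus (420 without mature and 470 without pre-pit cells of tube 1), 624 to 958 in the antrum (624 without mature and 670 without pre-pit cells of tube 1, 847 without pre-pit cells of tube 2) and 2 to 8 for the difference between regions (8 without corpus mature pit cells of tube 1 or of tube 2). On library totals the split of higher and lower calls moved from 906 and 533 to 635 and 1206 (mature against pre-pit), from 1715 and 2152 to 636 and 3792 (pre-pit against isthmus), from 4889 and 4530 to 3883 and 5685 (parietal), from 724 and 599 to 432 and 1035 (mature pit, corpus) and from 848 and 579 to 402 and 1242 (mature pit, antrum).

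Log2 differences that changed sign were, on library totals, Vegfa in chief against neck cells (-0.21), Egln2 there (-0.46), Vegfa in cluster 8 against 1 (0.17) and in corpus mature against pre-pit cells (-0.09). Leaving out a sum gave, for Vegfa in cluster 8 against 1, -0.12 to 0.03 (0.03 without cluster 1 of pool K), for Vegfb in corpus against antrum -0.15 to 0.69, and for Vegfa in mature against pre-pit cells -0.10 to 0.51 in the corpus and -0.10 to 0.82 in the antrum. The difference between regions ran from -0.71 to 0.22 for Vegfa with a sum left out and turned, from 0.00, for Vegfb with DESeq2 (0.05), RLE factors (0.01), mitochondrial genes left out (0.02), library totals (0.07) and a sum left out (-1.04 to 0.94). With the pool as a block, the calls of the members changed for Vegfb in cluster 8 against 1 only.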

Other observations

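The endothelial-like cells held further genes of the same pathways, given as levels from 9 and 15 cells. Ptprb, a phosphatase that acts on Tie2 and the highest of the other family genes there, stood at 2052 and 2004 CPM in pools K and T of dataset 2 and at 2056 and 2121 in tubes 1 and 2. Cxcl12, a chemokine, was the highest of the other secreted factors, at 5040 and 2566 and at 5561 and 2014. Timp3, an inhibitor that blocks binding of VEGF to the Kdr product, was the highest of the inhibitors, at 864 and 1027 and at 1986 and 2092. Epas1, which encodes a hypoxia-inducible factor abundant in endothelium, was the highest of the hypoxia genes, at 2268 and 1613 and at 2337 and 2180. Another 3 genes were named after their values were seen: Nrp1, a co-receptor of VEGF, stood at 2088 and 1564 and at 2126 and 1564, Flt4, the receptor of Vegfc, at 324 and 196 and at 93.5 and 195, and Vegfc at 0 and 122 and at 0 and 127. The 5 genes of the PGC-1 and estrogen-related receptor group had no UMI in endothelial-like cells of dataset 2. By the floor of 3 UMIs this allows up to 43.7 CPM for each gene, so absence was not shown. Their values in dataset 1 are not given here.

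Other sources lay outside the endothelium. Vegfd, a ligand of lymphatic vessels, stood at 133 and 172 CPM in fibroblast-like cells of dataset 1, the highest of its cell types. Nrp1 stood at 161 CPM over both pools in ECL-like cells of dataset 2, in which Pgf was also highest. In pit cells of dataset 1, Adm, which encodes the vasoactive peptide adrenomedullin, was higher in the corpus than in the antrum by 2.25 ± 0.49 on the log2 scale (edgeR adjusted p = 0.00535; 0.0521 without antrum pre-pit cells of tube 1), as were Egln3 (2.66 ± 0.21, 1.16e-07) and Car9, a carbonic anhydrase (1.80 ± 0.16, 4.01e-07). Of 14 hypoxia genes tested there, these last 2 rose and none fell, in a comparison that called 9.24% of all genes.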
